A study of Mus musculus with 5 samples.

Results

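Fos, Jun and Atf3 genes encode the basic leucine zipper subunits of activator protein 1 (AP-1), and 8 of them were followed here by their names in the deposited tables: *Fos*, *Fosb*, *Fosl1*, *Fosl2*, *Jun*, *Junb*, *Jund* and *Atf3*. They are 8 of 20365 gene names, and all 8 had at least 1 read. The cells were cardiac fibroblasts (CF), the matrix-producing cells of the heart, obtained by collagenase perfusion of hearts of wildtype C57Bl/6J mice, which were adult, male and healthy, and cultured to confluency. In 3 libraries the CF had been given 0.1 mM 4-thiouridine (S4U) for 12 h, and in 2 libraries CF had been cultured alongside without S4U. All 5 libraries share the alkylation step, the strain and an origin from healthy hearts. S4U is a uridine analog that enters newly made RNA, and after alkylation it is read as C in place of T (SLAMseq), so that every library gives a transcript level and a T>C conversion rate, the share of covered T positions read as C.

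AP-1 is a dimer. Jun proteins pair with each other or with Fos proteins, whereas Fos proteins need a Jun partner, and the dimers bind DNA elements in genes of growth, matrix remodeling and inflammation. *Fos*, *Jun*, *Junb* and *Atf3* are textbook immediate early genes, induced within minutes by serum, growth factors or stress, and their mRNA is known to be short-lived in many cells. Part of this instability is attributed to AU-rich elements in the 3′ UTR, in which the pentamer ATTTA recurs.

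The reads of each gene were counted on an interval of its 3′ UTR, and these intervals are where the conversions were read. In GRCm39, the *Fos* interval is chr12:85523233-85524048 on the plus strand, in exon 4 of ENSMUSG00000021250.15, and *Fosl1* lies at chr19:5505337-5505966 on the plus strand, in exon 4 of ENSMUSG00000024912.7. *Fosl2* lies at chr5:32310534-32315184 on the plus strand, in exon 4 of ENSMUSG00000029135.12. *Jun* lies at chr4:94937273-94938503 on the minus strand, in the single exon of ENSMUSG00000052684.6. *Junb* lies at chr8:85703538-85704023 on the minus strand in ENSMUSG00000052837.9, of which a longer isoform runs 2425 bases further. *Jund* lies at chr8:71152733-71153265 on the plus strand, in the single exon of ENSMUSG00000071076.9. *Fosb* at chr7:19036621-19038765 (ENSMUSG00000003545.4) and *Atf3* at chr1:190902493-190903678 (ENSMUSG00000026628.15) are both on the minus strand. The 8 intervals lie in annotated 3′ UTR, apart from 1 base past the annotated exon in *Fos* and in *Junb*, and none overlaps coding sequence of its own gene. *Fosl1* overlaps the coding gene *Ccdc85b*, and *Fosl2*, *Jun* and *Junb* overlap the lncRNA genes *Gm72529*, *Junos* and *Gm65321*, each on the opposite strand. The sources do not say whether strand was used in counting, so reads of these 4 genes and of their opposite-strand partners may not be separable.

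Every one of the 8 intervals holds ATTTA at least once on the transcript strand. The stretches of 30 bases printed here show the element in the 6 members whose conversion rate passed the test described further on, with ATTTA in capitals. They come from GRCm39 and read 5′ to 3′ along the transcript. They lie at chr12:85523874-85523903 (*Fos*), chr19:5505894-5505923 (*Fosl1*), chr5:32314208-32314237 (*Fosl2*), chr4:94937444-94937473 (*Jun*), chr8:85703756-85703785 (*Junb*) and chr8:71153007-71153036 (*Jund*).
Fos: ttgtgttttcaATTTATTTAttaagatgga
Fosl1: aagggcagctgctATTTAttttcctaaaga
Fosl2: aattgacATTTAttttattATTTAttttaa
Jun: atcATTTAtaatcataggaaagATTTAgta
Junb: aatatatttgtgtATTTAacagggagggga
Jund: ccgattccgccctATTTAtgtttctactcg

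The pentamer is common in intervals of this size, so its presence alone sets none of these genes apart. Copies that overlap were each counted, and only the transcript strand was searched. *Fos* held 4 copies in 816 bases, and 10.1% of intervals within 20% of its length held at least as many. *Fosl2*, with 4651 bases, held 8, and 50.4% of intervals of like length held at least as many. *Jun* held 4 in 1231 bases (22.2% of like intervals held as many or more), *Atf3* 3 in 1186 bases (34.7%) and *Junb* 2 in 486 bases (19.1%). *Fosb*, *Fosl1* and *Jund* held 1 copy each, as did or exceeded 91.4%, 58.2% and 52.3% of intervals of like length. The longer TATTTAT, which contains ATTTA, was absent from the *Junb* interval, occurred 3 times in *Fosl2* and 2 times in *Fos*, and occurred once in each of the other 5. It was present in 24.9% of the intervals of all genes, and in 11.8% of those as long as that of *Junb*. At least as many copies were held by 3.97% of intervals of like length for *Fos* and 13.0% for *Fosl2*. For the 5 genes with 1 copy this share ran from 13.8% (*Jund*) to 42.3% (*Fosb*).

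The libraries differed in depth. Reads counted on 1 interval per gene ranged from 506045 to 1842863 per library, and the smallest was labeled replicate 3. The deposited CPM values divide by a number of reads that exceeds these counted reads by 7.58 to 28.9 times, most in that library. Levels are therefore given as CPM relative to counted reads, a scale chosen to compare libraries, with the deposited mean beside it for the 4 more abundant members. In these 3′ end libraries a transcript gives 1 tag whatever its length, so levels of different genes need no correction for length. Transcripts that end beyond the counted interval, as the longer isoform of *Junb* does, would be missed, so the level of *Junb* may be understated. All 10 fibroblast markers had reads, with a summed level of 31908 to 42840 CPM. The macrophage and endothelial lists summed to 74.9 to 143 and 121 to 244 CPM, mural cell markers to 707 to 2273 CPM, and 10 cardiomyocyte markers to 2.17 to 9.04 CPM with *Actn2*, *Myl2* and *Ryr2* at 0. In such bulk samples, fewer cells of a type and less RNA per cell cannot be told apart.

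*Junb* and *Fosl2* made up most of the AP-1 transcript pool of the CF. *Junb*, a Jun protein with a weaker activation domain than *Jun*, gave 463, 209 and 113 reads in labeled replicates 1 to 3 and 440 and 199 in the unlabeled replicates. As a level this was 294, 175 and 223 CPM with S4U (231 ± 59.8, SD, n = 3) and 239 and 200 CPM without. The deposited CPM of *Junb* averaged 20.4 ± 16.3 (SD, n = 3), or 11.3 without labeled replicate 1, and 94.2% of the 13797 genes detected in the labeled libraries had a lower mean level.

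*Fosl2* encodes Fra-2, a Fos protein without the strong activation domain of FOS. It gave 264, 212 and 122 reads with S4U and 269 and 183 without, that is 168, 177 and 241 CPM (195 ± 39.9, SD, n = 3) against 146 and 184 CPM. The deposited mean was 15.2 ± 6.88 CPM (SD, n = 3). *Junb* had more reads than *Fosl2* in labeled replicate 1 and in both unlabeled libraries, and *Fosl2* had more in labeled replicates 2 and 3, so the order of these neighbours was not settled beyond the spread of the libraries. Together they held 80.2%, 75.6% and 72.8% of all member reads with S4U and 82.3% and 77.8% without.

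*Jund*, the most constitutively expressed Jun gene in many cells, and *Jun*, the founding member of its family, followed at lower levels. *Jund* stood at 41.2, 66.1 and 88.9 CPM with S4U (65.4 ± 23.8, SD, n = 3) and at 33.1 and 69.3 CPM without, with a deposited mean of 4.71 ± 1.41 CPM (SD, n = 3). *Jun* stood at 59.6, 36.0 and 73.1 CPM with S4U (56.2 ± 18.8, SD, n = 3) and at 42.9 and 33.1 CPM without, with a deposited mean of 4.48 ± 2.94 CPM (SD, n = 3), or 2.79 without labeled replicate 1. *Jund* had more reads than *Jun* in labeled replicates 2 and 3 and in unlabeled replicate 2, and fewer in both replicates numbered 1. These neighbours did not differ beyond their spread either.

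The other 4 genes lay near the limit of detection. *Fosl1*, which encodes Fra-1, gave 8, 9 and 3 reads with S4U (6.18 ± 1.25 CPM, SD, n = 3) and 2 and 1 without. *Fos*, the classical immediate early gene, gave 10, 4 and 2 reads with S4U (4.55 ± 1.59 CPM, SD, n = 3) and 7 and 3 without. *Atf3*, a stress-induced factor that dimerizes with Jun proteins, gave 1 read in each labeled library and 4 and 2 in the unlabeled ones. *Fosb* gave 1 read in labeled replicate 1, 1 in unlabeled replicate 2 and none in the other 3 libraries. Between *Fosl1* and *Fos* the order changed from library to library, whereas *Jun* and *Jund* had more reads than either in all 5 libraries.

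The Jun genes held the larger part of the pool. *Jun*, *Junb* and *Jund* took 68.7% (95% exact Clopper-Pearson interval 65.5 to 71.7) of the 906 member reads in labeled replicate 1. Their share was 59.4% (55.2 to 63.5) of 557 reads in labeled replicate 2 and 60.4% (54.8 to 65.7) of 323 in labeled replicate 3. It was 67.3% (64.0 to 70.4) of 862 reads and 61.3% (56.8 to 65.6) of 491 reads in the unlabeled libraries. The share was thus above 59% everywhere, and it was higher in the replicates numbered 1 of both groups than in the other libraries. These intervals and all other intervals and limits on single values cover counting error only. Those on T>C rates take covered T positions as independent, although a read can carry several conversions, so they may be too narrow.

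**Figure D1:**
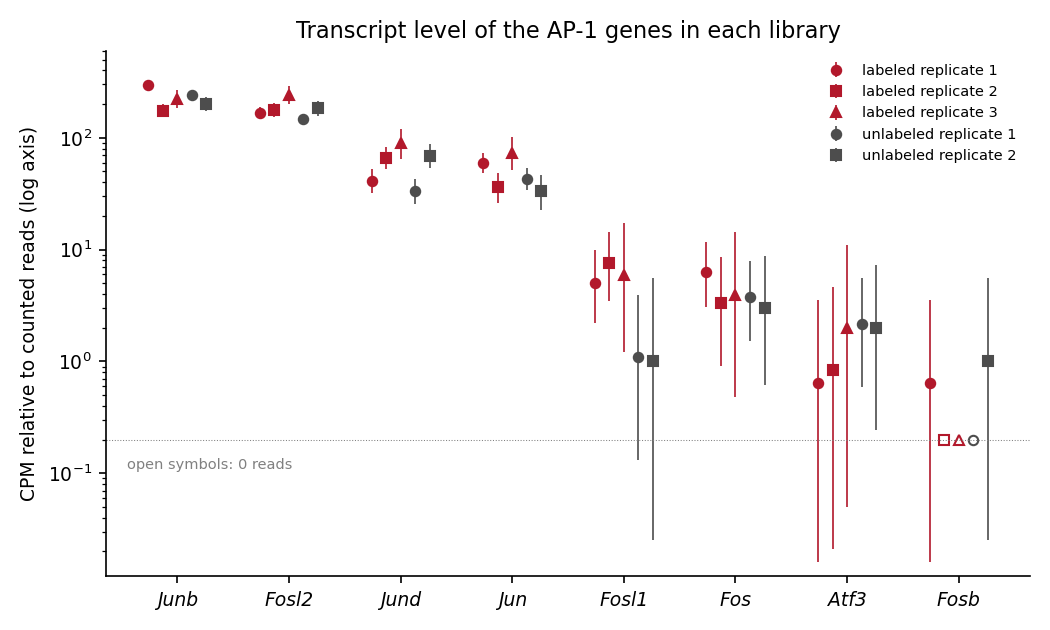
Level of the 8 AP-1 genes in each of the 5 libraries, on a log axis of CPM relative to counted reads, with points for single libraries and bars for 95% exact Poisson intervals (open symbols mark libraries with 0 reads, which a log axis cannot place). *Junb* and *Fosl2* lay between 146 and 294 CPM in every library, *Jun* and *Jund* between 33.1 and 88.9, and the other 4 genes at or below 7.53.

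The first comparison asked whether the transcripts carried S4U after 12 h, and for 6 of the 8 members they did. *Fos*, *Fosl1*, *Fosl2*, *Jun*, *Junb* and *Jund* had a higher T>C rate with S4U than without by a beta-binomial likelihood-ratio test with Benjamini-Hochberg adjustment over 19240 intervals. This call was the rule rather than the exception, since 94.5% of all intervals tested were called higher. *Atf3* was tested and not called, and *Fosb* could not be tested because it had no covered T in 3 libraries. The study states that separate CF preparations were used for SLAMseq, but GEO's labels do not tie the libraries to preparations or animals, so p-values measure the spread between these libraries.

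*Junb* had conversions at 396 of 11843 covered T positions in labeled replicate 1, 211 of 5719 in replicate 2 and 117 of 2983 in replicate 3. Its T>C rate was 0.0334, 0.0369 and 0.0392 (0.0365 ± 0.00291, SD, n = 3). Without S4U the rate was 0.00337 in replicate 1, from 40 conversions in 11867 positions, and 0.000534 in replicate 2, from 3 in 5621. The groups did not overlap (adjusted p = 6.90e-05, beta-binomial test with Benjamini-Hochberg adjustment). The background of *Junb* in unlabeled replicate 1 was itself high, above that of 93.7% of 3922 deeply covered genes (500 or more T positions covered in each library), and above 60.6% of them in unlabeled replicate 2. The median gene in these libraries stood at 0.000650 and 0.000367.

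*Fosl2* was the most even member, with a rate of 0.0365, 0.0351 and 0.0337 with S4U (0.0351 ± 0.00145, SD, n = 3). Without S4U it showed 1 conversion in 5845 positions and 0 in 4895, which allows a rate of up to 0.000613 (adjusted p = 8.54e-06 by the same beta-binomial test, Benjamini-Hochberg adjusted). *Jun* had a rate of 0.0309, 0.0321 and 0.0384 with S4U (0.0338 ± 0.00401, SD, n = 3), against 2 conversions in 1368 positions and 0 in 755 without (adjusted p = 5.23e-05, same test). *Jund* had a rate of 0.0243, 0.0329 and 0.0193 with S4U (0.0255 ± 0.00690, SD, n = 3) and 0 conversions in 1163 and 1562 positions without (adjusted p = 0.000118, same test). The labeled libraries of these 3 genes all lay above the unlabeled ones, as did those of *Junb*. With 94.5% of all intervals called higher by this test, such a separation does not set these genes apart. The share of all intervals with such a separation was not counted.

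*Fos* and *Fosl1* carried the highest rates of the 6, on few reads. *Fos* had 9 conversions in 185 positions, 7 in 118 and 5 in 58 with S4U, a rate of 0.0486, 0.0593 and 0.0862 (0.0647 ± 0.0194, SD, n = 3). None was seen in 279 positions without S4U, which allows a rate of up to 0.0108 (adjusted p = 0.000448, beta-binomial test, Benjamini-Hochberg adjusted). *Fosl1* had a rate of 0.0465, 0.0552 and 0.0746 with S4U (0.0588 ± 0.0144, SD, n = 3). Only 54 positions were covered without S4U and none was converted, which allows up to 0.0556, a limit above 2 of the 3 labeled rates. The call of *Fosl1* (adjusted p = 0.0184, same test) was lost without unlabeled replicate 1 (adjusted p = 0.237) and in a limma fit of the log2 odds with the replicate number as a block (adjusted p = 0.0739). Its adjusted p ranged from 0.0163 to 0.237 over the 8 alternatives in which it was tested, and it could not be tested where at least 100 covered T positions were required.

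*Atf3* rested on a single read. Its 3 conversions in 44 labeled positions all came from 1 read in labeled replicate 2, where 17 positions were covered, and labeled replicates 1 and 3 showed 0 in 6 and 0 in 21. Without S4U it had 0 in 124 positions. The beta-binomial test gave an adjusted p of 0.160, which fell to 0.0423 without labeled replicate 3 and rose to 1 without labeled replicate 2. limma on the log2 odds gave an adjusted p of 0.0225, and 1.21e-06 with the replicate block. With a pseudocount of 0.5, however, the log2 odds of a library with 0 conversions depend on its covered positions alone. Labeled replicate 1 had 0 in 6 and unlabeled replicate 1 had 0 in 91, which gives different log2 odds without any conversion. The limma values of *Atf3* thus reflect coverage as well as conversions, and no call is drawn from them. The same holds for the unlabeled libraries of *Fosl1*. *Fosb* had 2 conversions in 15 positions with S4U and 0 in 27 without.

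**Figure D2:**
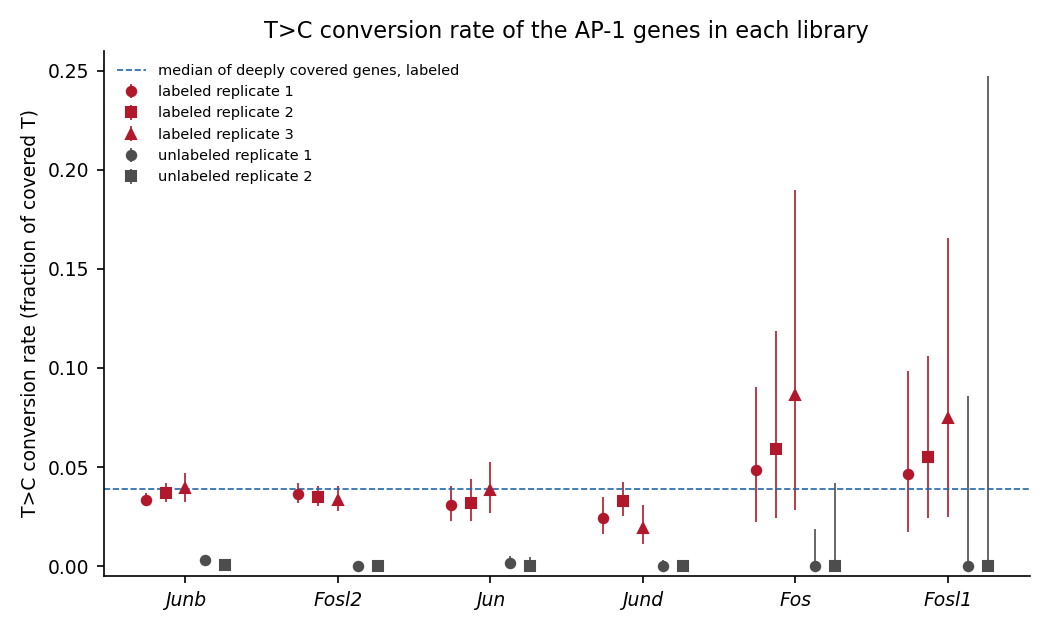
T>C conversion rate of the AP-1 genes in each library, as a fraction of covered T positions, with points for single libraries and bars for 95% exact binomial intervals. The labeled points of *Junb*, *Fosl2*, *Jun* and *Jund* lay between 0.0193 and 0.0392, and those of *Fos* and *Fosl1* between 0.0465 and 0.0862 with wide intervals.

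Set against other transcripts, the members deep enough to place had rates in the lower part of the range. The mean rate with S4U of these 3922 genes had a median of 0.0389 and quartiles of 0.0348 and 0.0422. *Junb* was above 34.2% of these genes, *Fosl2* above 26.7%, *Jun* above 21.3% and *Jund* above 8.75%. By single library, *Junb* was above 26.3%, 37.3% and 51.4% of the genes and *Jun* above 19.0%, 18.8% and 47.3%. *Fosl2* was above 41.8%, 28.4% and 28.3%, and *Jund* above 9.54%, 21.3% and 6.09%. Of these 12 values, only that of *Junb* in labeled replicate 3 was past the median gene. None of these rates was corrected for the rate without S4U, which for *Junb* was above that of 93.7% and 60.6% of the genes. At 1000 or more covered positions, which *Junb* and *Fosl2* met, they were above 34.9% and 28.1% of 2105 genes.

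Among the members themselves, *Jund* had a lower rate than *Junb* and *Fosl2* in 3 of 3 labeled libraries, and *Jun* a lower rate than *Junb* in 3 of 3. The neighbours *Junb* and *Fosl2*, *Fosl2* and *Jun*, and *Jun* and *Jund* changed order between libraries. Pooled over the labeled libraries, *Jund* had a rate of 0.0272 (95% exact interval 0.0223 to 0.0328), whose upper bound just reached the interval of *Junb* (0.0352, 0.0328 to 0.0379) and overlapped those of *Fosl2* (0.0353, 0.0323 to 0.0385) and *Jun* (0.0332, 0.0276 to 0.0395). *Fos* at 0.0582 (0.0364 to 0.0875) and *Fosl1* at 0.0557 (0.0339 to 0.0856) were above all 4 of these genes in 3 of 3 labeled libraries. Their intervals overlapped those of *Junb*, *Fosl2* and *Jun*. The study's design holds a single labeling time, so these rates give no half-life.

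**Figure D3:**
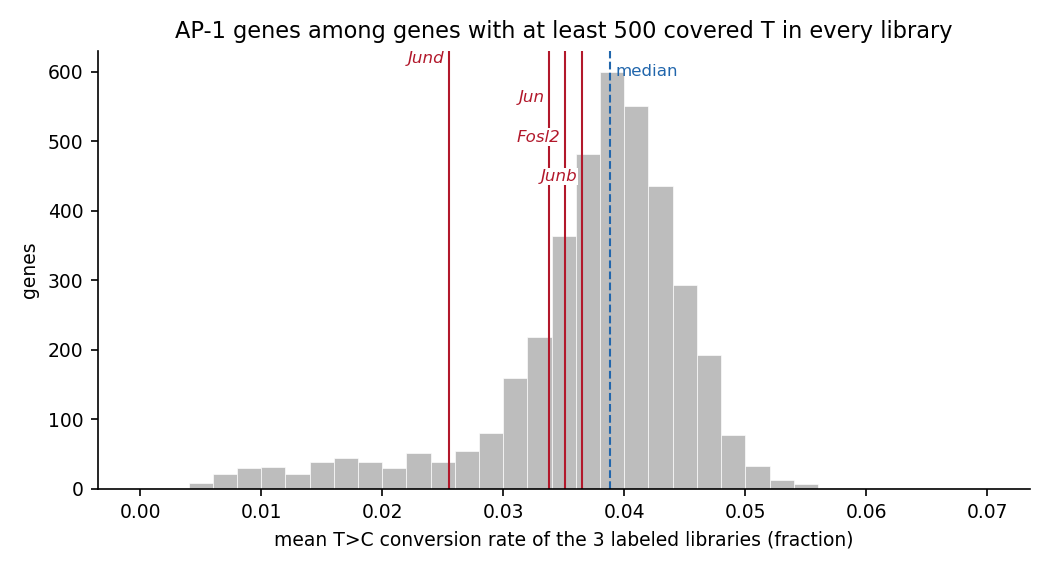
Number of genes by mean T>C rate over the 3 labeled libraries, for the 3922 genes with 500 or more T positions covered in each library, with lines at the 4 AP-1 genes deep enough to place. All 4 lines fall to the left of the median of 0.0389, *Jund* farthest at 0.0255.

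The share of reads with at least 1 conversion gave another view of the same molecules. It was 57.2%, 58.9% and 66.4% for *Junb* with S4U and 51.5%, 60.4% and 54.1% for *Fosl2*, above the 41.7%, 45.5% and 44.9% found over the deep genes together in those libraries. *Jun* had 35.1%, 48.8% and 75.7% and *Jund* 29.2%, 53.2% and 31.1%, values on both sides of those of the deep genes. The share of the deep genes pools their reads, so abundant genes weigh most in it. Among these were *Col1a1* and *Col3a1*, with mean T>C rates of 0.0259 and 0.0151 with S4U. It is therefore not the share of the median gene, which had a higher T>C rate than *Junb* and *Fosl2*. The share of a gene also depends on how many T positions a read covers, which differs between genes. The ratio of conversions to converted reads with S4U was 1.56 for *Junb*, 1.48 for *Fosl2*, 1.49 for *Jun*, 1.40 for *Jund*, 1.46 for *Fosl1* and 2.10 for *Fos*, where the deep genes had 1.52, 1.59 and 1.62 in labeled replicates 1 to 3. Without S4U the ratio of the deep genes was 0.971 and 0.969, below the 1 conversion that a converted read must hold, so the deposited counts of conversions and of converted reads do not rest on quite the same bases. Without S4U, 9.09% (6.57 to 12.2, exact interval) of *Junb* reads in replicate 1 and 1.51% (0.312 to 4.34) in replicate 2 carried a conversion. These 43 *Junb* reads, 2 of *Jun* and 1 of *Fosl2* were all the converted member reads without S4U, and their number equaled that of the conversions. *Fos* had a conversion in 62.5% of 16 labeled reads and *Fosl1* in 65.0% of 20.

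The second comparison asked whether 12 h with S4U changed transcript levels. By edgeR's quasi-likelihood test on read counts, 4 of the 8 members passed the filter on low counts, through both groups, and none was called. Nor was any other gene, as 0% of 9807 genes tested were called after Benjamini-Hochberg adjustment, while without adjustment 279 genes had a p below 0.05 with more reads and 306 with fewer. DESeq2 called 13 genes higher and 7 lower, no member among them. With the replicate number as a block, on 1 residual degree of freedom, edgeR called 528 higher and 617 lower, again no member. The log2 fold change of *Junb* was 0.15 (SE 0.28, 95% interval -0.52 to 0.82) and that of *Fosl2* 0.32 (SE 0.30, -0.38 to 1.02). That of *Jun* was 0.62 (SE 0.38, -0.29 to 1.53) and that of *Jund* 0.41 (SE 0.48, -0.73 to 1.56). Their median was 0.37 beside 0.02 over all genes tested. None of the 4 had an unadjusted p below 0.05, and the intervals leave room for a change of more than 1.5-fold in each. *Junb* turned to -0.048 without labeled replicate 1, and *Jund* ran from -0.079 without unlabeled replicate 1 to 1.08 without unlabeled replicate 2.

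*Fosl1* had the largest difference of the 8. Its 20 reads with S4U and 3 without corresponded to 5.08, 7.53 and 5.93 CPM against 1.09 and 1.00 CPM, a pooled ratio of 5.78 (95% interval of counting error 1.71 to 30.4). It was the only member with every labeled library above both unlabeled ones, as was the case for 7.32% of 14283 genes with a read. *Atf3* was the only member with every labeled library below both unlabeled ones, on 3 reads against 6 (ratio 0.433, 0.0701 to 2.03), as were 12.2% of those genes. In edgeR without the filter on low counts, the log2 fold change of *Fosl1* was 2.51 (SE 0.84, 95% interval 0.69 to 4.33, unadjusted p = 0.0108, adjusted p = 0.756). In that fit, 2.35% of genes were higher at an unadjusted p below 0.05. *Fosl1* therefore did not pass the test after adjustment. The ratio of *Fos* was 1.39 (0.591 to 3.42), and that of *Fosb*, with 1 read in each group, was 0.866 (0.0110 to 68.0).

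**Figure D4:**
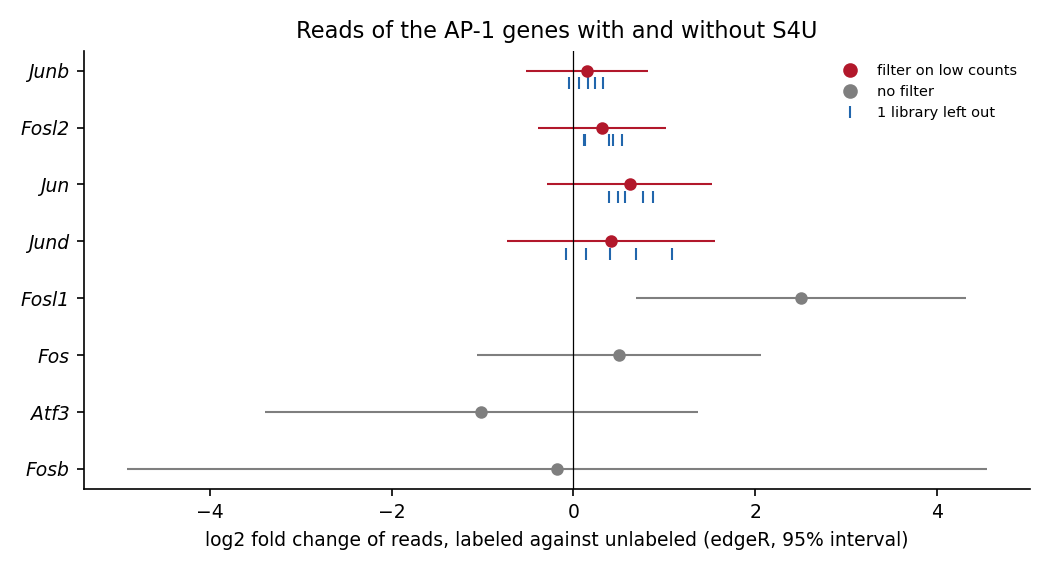
log2 fold change of reads, labeled against unlabeled, for the 8 AP-1 genes by edgeR, with 95% intervals. Red points are genes that passed the filter on low counts, grey points come from the fit without it, and blue ticks show the values with 1 library left out. Only the interval of *Fosl1* lies off 0, at 0.69 to 4.33, and it did not pass after adjustment.

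Other genes of the pathway were taken from lists, which were chosen with earlier results of these data known. In edgeR, 2.84% of all genes tested had more reads with S4U at an unadjusted p below 0.05 (279 of 9807, beside 306 with fewer). At that p, 1 of 15 kinases and 1 of 13 promoter factors had fewer reads, and of 21 other basic leucine zipper partners 1 had more and 1 fewer. Of 19 immediate early genes outside AP-1, 4 had more and 0 fewer, and of 11 protein turnover genes and 15 AU-rich element binding genes none had either. The lists share genes, so these counts are not of separate genes. *Maff*, the 1 partner with more reads, is also 1 of those 4. *Creb1* and *Atf2* are both partners and promoter factors, and *Dusp1* is both an immediate early gene and a target gene. Among 15 tested kinases that feed AP-1, none was called and the median log2 fold change of reads was 0.03. Of 9 deep kinases 6 had a T>C rate above the median gene. *Map2k1* (MEK1) had a T>C rate of 0.0457 ± 0.00246, and *Mapk9* (JNK2) had the highest of the list at 0.0505 ± 0.00746, while *Map2k3* (MKK3) had the lowest at 0.0307 ± 0.00334 (SD, n = 3). Of 13 tested factors that act on the promoters of *Fos* and *Jun*, none was called, and 8 of 10 deep members had a rate above the median gene. *Stat3*, a cytokine-activated factor, had a rate of 0.0443 ± 0.000996 and *Creb1*, which binds the cAMP response element, 0.0316 ± 0.00261 (SD, n = 3). Without S4U, *Stat3* had a high rate of 0.00510 and 0.00797, and *Creb1* had 0.00122 and 0.000294. The median deep gene then had 0.000650 and 0.000367, and the rates compared here were not corrected for this background. None of 11 tested genes of Fos and Jun protein turnover was called, with *Gsk3b*, a kinase that phosphorylates Jun, at 356 ± 66.0 CPM (SD, n = 3).

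The AU-rich element binding proteins were expressed throughout. All 15 were tested on reads, none was called, and 5 of 11 deep genes had a rate above the median gene. *Zfp36l1*, which promotes decay of transcripts with such elements, stood at 442 ± 32.6 CPM with S4U (SD, n = 3) and at 513 and 629 CPM without, with a T>C rate of 0.0346 ± 0.00215. *Elavl1* (HuR), which stabilizes such transcripts, stood at 72.6 ± 16.3 CPM with a rate of 0.0462 ± 0.00502 (SD, n = 3). Among the deep genes, intervals with TATTTAT had a median rate of 0.0397 (1384 genes) and those without it 0.0383 (2537 genes). The intervals with it were longer, with a median length of 2374 bases beside 1007. *Fosl2*, *Jun* and *Jund*, which hold the motif, were below the first value, and *Junb*, which lacks it, below the second.

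The immediate early genes outside AP-1 also had rates in the lower part of the range. Only 1 of 9 deep genes of that list was above the median gene, and the list's median rate was 0.0363, where that of the 4 deep AP-1 genes was 0.0345 with 0 of 4 above, and the difference between lists was not tested. *Klf6* had 0.0330 ± 0.00243, *Rhob* 0.0337 ± 0.00282, *Ier3* 0.0327 ± 0.00108 and *Btg2*, an antiproliferative gene, 0.0300 ± 0.00544 (SD, n = 3). The exception was *Maff*, a small Maf factor that pairs with Fos proteins, at 0.0452 ± 0.00566. Of the other basic leucine zipper partners, 9 of 16 deep genes were above the median gene, while the abundant *Atf5*, *Atf4* and *Cebpb* had 0.0316 ± 0.00202, 0.0332 ± 0.00291 and 0.0333 ± 0.00224 (SD, n = 3). None of the 19 immediate early genes and 21 partners tested was called on reads. *Maff* had 88.2, 105 and 117 CPM with S4U and 38.5 and 41.2 without, a log2 fold change of 1.45 (SE 0.29, edgeR adjusted p = 0.532).

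**Figure D5:**
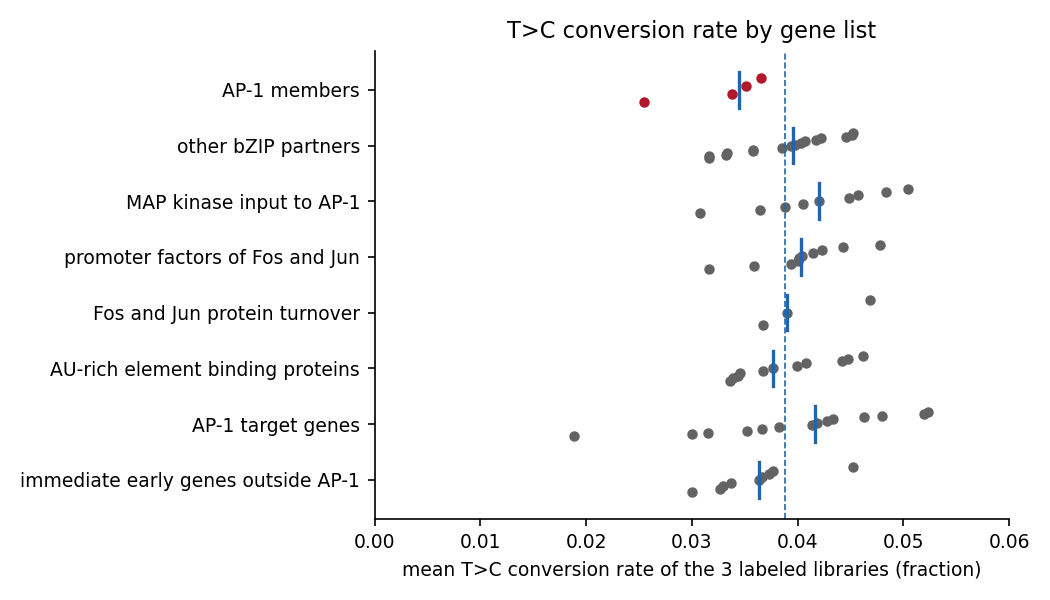
Mean T>C rate over the 3 labeled libraries for each gene with 500 or more T positions covered in each library, by list, as points, with a mark for the median of each list and a line at the median of 0.0389 of all such genes. The 4 AP-1 genes lie left of the line, and 1 of 9 immediate early genes outside AP-1 lies right of it.

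Genes known as AP-1 targets spread over a wide range of rates. *Mmp3*, the stromelysin gene, had 0.0189 ± 0.00320 and *Fstl1*, a secreted glycoprotein gene, 0.0300 ± 0.000324, while *Ccl2*, a monocyte chemokine gene, had 0.0524 ± 0.00246 and *Cd44*, the hyaluronan receptor gene, 0.0519 ± 0.00234 (SD, n = 3). By edgeR none of the 21 tested was called on reads after Benjamini-Hochberg adjustment. Without adjustment, 8 had a p below 0.05 and were higher with S4U and 0 lower, where 2.84% of all genes tested were higher. The median log2 fold change of the list was 0.65. This list was chosen with earlier results of these data known, so these values are no independent result about AP-1 targets. *Ccn2*, a matricellular growth factor gene, had 3061, 2599 and 3306 CPM with S4U and 1676 and 1371 without (log2 fold change 1.06, SE 0.25, adjusted p = 0.546, edgeR). The 8 also included *Hbegf*, *Ptgs2* and *Timp1*, named here after their values were seen. *Hbegf*, an EGF receptor ligand gene, had 49.5, 70.3 and 85.0 CPM with S4U and 10.9 and 18.1 without. *Ptgs2*, the inducible cyclooxygenase gene, had 114, 38.5 and 55.3 CPM with S4U and 10.9 and 4.02 without. *Timp1*, a metalloproteinase inhibitor gene, had 520, 1509 and 927 CPM with S4U and 124 and 283 without. The summed level of the 10 fibroblast markers was also higher in every labeled library, at 39221, 39573 and 42840 CPM with S4U and 31908 and 35548 without. That sum was carried by collagen genes such as *Col1a1* (log2 fold change 0.57, SE 0.23), while *Dcn* had 0.08, *Pdgfra* -0.51 and the list a median of 0.14. The 4 mural cell markers tested had a median log2 fold change of 0.70, with *Acta2* at 539, 1411 and 1618 CPM with S4U and 353 and 740 without, while *Pdgfrb* had a log2 fold change of 0.20 and *Notch3* -0.46. The summed mural level was 873, 1946 and 2273 CPM with S4U and 707 and 1327 without, so that its groups overlapped. The part of either marker list in these differences was not tested.

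Over the 5 libraries, some genes ran closely with the 2 most abundant members. Likeness was the root mean square difference of log2 CPM, each gene centred on its mean, with edgeR's TMM scaling. Those closest to *Junb* were *Tead1* (0.0464), *Pcbp2* (0.0578) and *Rictor* (0.0591), where the median gene differed by 0.431. Those closest to *Fosl2* were *Kif20a* (0.0283), *Fzd2* (0.0512) and *Oga* (0.0597), where the median gene differed by 0.480. With 5 libraries of unequal depth, these distances describe the libraries at hand.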

How the data were processed

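SLAMseq libraries of CF were analysed, 3 with and 2 without S4U, grouped by the submitters' labels. The authors prepared QuantSeq 3′ FWD libraries with unique molecular identifiers, aligned to mm39 in SLAM-DUNK 0.4.3 and removed duplicates with umi-tools. The authors deposited, for each 3′ UTR interval, read counts, counts of converted reads, covered T positions and conversions, without normalization. The conversion rate was deposited as a fraction, conversions over covered T positions. The deposited CPM divides the reads of an interval by a library total above the reads on these intervals.

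From the 97442 rows of each table, 40428 distinct intervals were kept, and a gene was represented by the interval with the highest mean deposited CPM in the labeled libraries (for *Fosb*, the first of 2 tied). Of these 20365 intervals, 20329 lay on sequences of the GRCm39 reference, where the T content of all 20329 matched, and the others were not checked. From this reference sequences and annotation were read. For T>C rates a two-sided beta-binomial likelihood-ratio test was used (1 overdispersion per interval, chi-square, 1 degree of freedom), where each library covered at least 1 T. For reads, edgeR's quasi-likelihood test followed TMM scaling and filterByExpr. Both were adjusted by Benjamini-Hochberg over all features tested, with a threshold of 0.05, and tried on simulated data, where unadjusted p-values of the beta-binomial test ran low. Limits for 0 conversions are 3 conversions of the covered positions. Between 506045 and 1842863 reads per library were counted, and same-group libraries differed beyond sampling noise (chi-square over degrees of freedom, 2.04 to 16.6), so none was counted as a copy. Alternatives were an unadjusted p, at least 100 covered positions, reads with a conversion, limma on log2 odds with a pseudocount of 0.5, DESeq2, library size alone, no filter, the replicate number as a block, reads summed per gene name, and each library left out.

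The members and lists were chosen with earlier results of these data known. All 8 members were named. From other lists, the rule took genes called on reads, otherwise up to 3 with the highest level, and the 2 highest and 2 lowest T>C rates where each labeled library covered 1000 T positions or more, of which the text gives a selection. Scripts ran in Python 3.11.15 (scipy 1.17.1, numpy 2.4.6, numba 0.67.0, pandas 2.3.3, matplotlib 3.10.9) and R 4.3.3 (limma 3.58.1, edgeR 4.0.16, DESeq2 1.42.0).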

Additional observations from a re-analysis of the deposited data

How the results depend on the processing

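The number of AP-1 genes with a raised T>C rate was 6, and it was also 6 with an unadjusted p and with reads as the unit. It was 6 in limma with the replicate block too, but there *Atf3* was called, on log2 odds that also depend on coverage, and *Fosl1* was not. It was 7 in limma without the block, 4 where at least 100 covered T positions were required, since the other genes were then not tested, and 5 to 7 with 1 library left out. No member was called on reads under any of the 10 alternatives, of which 8 tested *Fosl2*, *Jun*, *Junb* and *Jund* alone. *Fos*, *Fosb* and *Atf3* were tested without the filter, and *Fosl1* also without unlabeled replicate 2. The log2 fold change of *Junb* reversed to -0.048 without labeled replicate 1 and that of *Jund* to -0.079 without unlabeled replicate 1, and the cause was not tested. With 1 library left out, *Junb* ranged from -0.048 to 0.32, *Jund* from -0.079 to 1.08, *Fosl2* ranged from 0.11 to 0.54 and *Jun* from 0.39 to 0.88. Levels in CPM relative to counted reads exceeded the deposited CPM in all 8 genes, by construction.

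With the replicate block, edgeR called 528 genes higher and 617 lower, on 1 residual degree of freedom, where it called 0 without it. *Fosl2* then had a log2 fold change of 0.13 (adjusted p = 0.669), *Jun* 0.41 (0.283), *Junb* 0.14 (0.651) and *Jund* 0.16 (0.704), so none of these 4 was called, and the other 4 members were not tested with the block. Deviations from the group means correlated across genes at 0.784 for replicates numbered 1 and 0.638 for those numbered 2, but labeled replicate 3, which has no partner, also correlated with unlabeled replicate 2, at 0.482. With 2 unlabeled libraries each value has a mirror image of opposite sign, and no label ties the numbers to a shared preparation, so the pairing is not established. Depth limits *Fos*, *Fosl1*, *Atf3* and *Fosb*, with 16, 20, 3 and 1 labeled reads.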
